A study of Mus musculus with 10 samples.

Results

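Glycolysis, glucose transport and the pentose phosphate pathway were followed in sorted mouse macrophages through 34 genes of the 12535 in the table. The 34 genes were chosen by symbol: 3 glucose transporters, 12 genes from hexokinase to triose phosphate isomerase, 5 of lower glycolysis, 5 of lactate, pyruvate and monocarboxylate handling, 2 phosphoglucomutases and 7 of the pentose phosphate pathway. All 34 symbols were found, and 33 passed the filter on low values, which kept genes that reached 1 FPKM in 3 or more of the 10 libraries. FPKM are fragments per kilobase of gene, scaled to library size, so levels of different genes are compared here per length. Rpia, which makes ribulose and ribose 5-phosphate interconvert, lay between 0.650 and 0.974 FPKM in all libraries and was not tested.

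Glycolysis breaks glucose down to pyruvate in the cytosol. Glucose enters through facilitative transporters, is trapped by hexokinase, is committed at phosphofructokinase and yields ATP in its lower steps, and lactate dehydrogenase with the monocarboxylate transporters lets pyruvate leave the cell as lactate. The pentose phosphate pathway branches off at glucose 6-phosphate, its oxidative arm makes NADPH and its non-oxidative arm exchanges sugars with glycolysis. Macrophages are known to raise glycolytic genes under inflammatory stimuli and in low oxygen, the latter through the transcription factor HIF-1.

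The study compared 3 groups to ask what Ahr in myeloid cells does in pancreatic tumours. Resident macrophages came from the healthy pancreas of C57/BL6 WT mice (n = 4). Control tumour-associated macrophages (control TAM, n = 3) came from C57/BL6 Ahr fl/fl mice and cKO-labelled TAM (n = 3) from C57/BL6 Ahr fl/fl Lys M mice, in both cases 14 days after the organoid line MT4, a KPC pancreatic adenocarcinoma line, had been placed in the pancreas. All cells were sorted as CD45+CD11b+F4/80+. Ahr is a ligand-activated transcription factor, and the Cre driver under the Lyz2 (lysozyme M) promoter acts in macrophages, monocytes and neutrophils. The tumours came from 1 line, and resident and control macrophages differ in genotype as well as in tissue, so tumour, allele and handling cannot be told apart in that comparison.

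The reads recovered from the FPKM values came to between 10312706 and 26454656 per library. Ahr itself measured 3.84 to 4.46 FPKM in resident cells, 6.91 to 7.51 in control TAM and 9.65 to 11.2 in cKO-labelled TAM. This value counts the whole gene, exons outside a deleted part included, so it is no check on the deletion; cKO-labelled TAM is used as the name of the group. All 12 macrophage identity genes were in the table in all groups, led by Lyz2 and Cd68. Lyz2 had a mean of 28140 FPKM in resident cells, 19904 in control and 11460 in cKO-labelled TAM. The Cre driver of the cKO-labelled mice uses the Lyz2 promoter, and its part in the Lyz2 values was not tested. Cd68 had means of 920, 1014 and 1035 FPKM. Of the 12 genes, 6 rose and 6 fell in control TAM against resident (39.0% and 38.1% of all genes). From control to cKO-labelled TAM, 2 rose and 7 fell (20.5% and 19.1% of all genes). Transcripts of other cells moved with the groups. The 26 pancreatic acinar genes in the table (28 listed, led by Cela2a and Prss2) summed to 35886 to 38126 FPKM in resident cells, 119 to 127 in control TAM and 455 to 474 in cKO-labelled TAM. The sums of 13 epithelial and tumour cell genes (14 listed, led by Krt18 and Krt19) were 13.6 to 14.5, 296 to 303 and 304 to 318 FPKM, and those of 11 neutrophil genes (12 listed, led by Retnlg and Mmp9) were 362 to 372, 1484 to 1525 and 1901 to 2072 FPKM in the same order. The sums of the other lists had these means in the same order: 5 B cell genes (8 listed, led by Ighm and Cd79b) 902, 89.8 and 240 FPKM, 9 fibroblast genes (11 listed, led by Col3a1 and Dcn) 39.9, 171 and 132, 5 eosinophil genes (8 listed, led by Ear2 and Prg2) 51.6, 90.6 and 132, 11 T and NK cell genes (12 listed, led by Cd2 and Nkg7) 31.7, 20.1 and 26.4, and 4 endothelial genes (7 listed, led by Pecam1 and Kdr) 3.04, 7.32 and 11.6. Single genes carried much of some sums in resident cells: Mmp9 (mean 329 FPKM), Ear2 (50.7), Cd2 (21.7) and Ighm (854). In control TAM these were lower, at 41.5, 14.9, 1.76 and 83.1 FPKM. Yet 9 of 11 neutrophil, 4 of 5 eosinophil and 7 of 10 T and NK cell genes tested rose there (39.0% of all genes). In the same order 1, 1 and 2 fell (38.1% of all genes), as did all 5 B cell genes tested. Retnlg carried most of the neutrophil sum in TAM. Its mean was 1166 FPKM of a mean sum of 1507 in control TAM, and 1420 of 1989 in cKO-labelled TAM. Amy2a5 and Mzb1 were listed at 0 in all control TAM libraries and Prg2 in all resident libraries, and none of 6 erythroid genes was in the table. The part of these cells in the results below was not tested, and in bulk samples fewer cells of a type and less RNA per cell cannot be told apart.

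Promoter sequences are shown for the genes with the greatest rise in control TAM in transport (Slc2a1), upper glycolysis (Aldoc) and lactate handling (Slc16a3), because HIF-1 is known to act on many genes of this pathway. HIF-1 binds the cores ACGTG and GCGTG, and GCGTG is also the core of the element bound by Ahr with its partner Arnt. Sequences are from RefSeq on GRCm38.p6, 5′ to 3′ on the gene's strand, and run up to the annotated start from 250 bases before it; capitals mark either core on either strand. Where the window overlapped an annotated exon of the gene by more than 30 bases, printing ended before that exon, which left out 34 bases for Slc2a1 and 105 for Aldoc; an overlap of 14 bases was left in for Slc16a3.
Slc2a1, chr4:119108495-119108710, plus strand: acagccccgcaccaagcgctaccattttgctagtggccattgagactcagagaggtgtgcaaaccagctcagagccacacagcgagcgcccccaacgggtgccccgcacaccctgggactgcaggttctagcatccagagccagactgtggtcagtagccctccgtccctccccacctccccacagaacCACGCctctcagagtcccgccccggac
Aldoc, chr11:78322823-78322967, plus strand: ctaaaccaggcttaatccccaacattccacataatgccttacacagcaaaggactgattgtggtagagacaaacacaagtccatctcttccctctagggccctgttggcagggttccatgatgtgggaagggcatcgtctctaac
Slc16a3, chr11:120948817-120949066, plus strand: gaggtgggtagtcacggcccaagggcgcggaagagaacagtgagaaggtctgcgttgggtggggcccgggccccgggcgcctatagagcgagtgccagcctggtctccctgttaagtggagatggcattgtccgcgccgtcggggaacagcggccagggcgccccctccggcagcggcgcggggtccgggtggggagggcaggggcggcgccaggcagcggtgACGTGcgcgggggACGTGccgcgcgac
The printed Slc2a1 stretch holds 1 core, CACGC, 61 bases before the start, and the 34 bases left out hold another. No core is in the printed Aldoc stretch, and 1 lies in the 105 bases left out. Slc16a3 has ACGTG at 27 and 14 bases before the start. The start used for Slc16a3 lies inside the annotated span of the gene (120948480 to 120960868), so the stretch is not upstream of the whole gene.

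The promoters of 3 more genes, chosen after the matches had been seen, show the range within the pathway, from 5 matches in 1 of the 2 Ldha windows and 2 in Pgk1 to 0 in Gpi1. Where a gene had more than 1 window, the most upstream is shown. Both Ldha windows lie inside the annotated span of the gene (46841475 to 46855627). The bases just after the start of the Ldha window shown were not found in a GENCODE M21 transcript of the gene, while those of its other window (chr7:46846832-46847081) were; that window holds 1 match, of GCGTG, and none of ACGTG.
Ldha, chr7:46845554-46845803, plus strand: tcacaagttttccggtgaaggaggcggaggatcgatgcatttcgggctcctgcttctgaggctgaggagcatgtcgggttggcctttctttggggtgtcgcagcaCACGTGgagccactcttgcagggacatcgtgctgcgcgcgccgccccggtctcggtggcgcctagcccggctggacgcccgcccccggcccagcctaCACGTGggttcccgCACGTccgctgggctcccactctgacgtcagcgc
Pgk1, chrX:106186850-106187099, plus strand: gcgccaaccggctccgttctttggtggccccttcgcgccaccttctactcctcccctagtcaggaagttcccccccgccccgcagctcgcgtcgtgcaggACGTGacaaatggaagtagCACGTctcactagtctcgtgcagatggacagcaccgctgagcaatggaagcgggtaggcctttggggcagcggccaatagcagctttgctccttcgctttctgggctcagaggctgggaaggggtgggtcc
Gpi1, chr7:34230337-34230586, minus strand: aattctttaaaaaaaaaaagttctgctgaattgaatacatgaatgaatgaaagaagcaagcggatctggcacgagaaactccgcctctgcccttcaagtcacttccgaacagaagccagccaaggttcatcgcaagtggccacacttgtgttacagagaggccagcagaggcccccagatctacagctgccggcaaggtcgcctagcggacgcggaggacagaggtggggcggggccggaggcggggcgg
In Ldha the capitals include CACGTG at 145 and 48 bases before the start; each copy counts as 2 matches because it reads ACGTG on both strands, and CACGTG is also the E box. The Gpi1 window holds neither core. Across the pathway 33 of the 34 genes were matched, with 47 windows of 250 bases, and Slc2a3 was not. ACGTG was found in 17 of the 47 windows (36.2%) against 5444 of all 32851 windows of the table (16.6%), GCGTG in 26 (55.3%) against 28.2%, and either core in 38 (80.9%) against 12679 (38.6%). CACGTG was in 4 of the 47 windows (8.51%), near the 6.02% of all windows (1978). The median GC content was 60.4% in the pathway's windows and 52.4% in all windows, and both cores hold a CG; the part of GC content in these shares was not tested. Some windows of the same gene overlap, as for Aldoa, Eno1 and Pfkm, so a match can count more than once. Other windows lie in an exon of their gene, over all 250 bases for G6pdx and for a window of Eno1 and of Pdk1. The part of these in the shares was not tested. A match describes letters in a window and does not show binding.

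Transcripts of this pathway took up more of the control TAM libraries than of the resident ones. The 34 genes summed to 1903 ± 54.3 FPKM (SD, n = 4) in resident, or 0.356% of the library's FPKM total, to 7856 ± 92.7 (n = 3, 1.70%) in control TAM and to 6066 ± 90.7 (n = 3, 1.245%) in cKO-labelled TAM. Of the 33 tested genes, 29 rose in control TAM against resident, where 39.0% of all 11127 genes tested rose, and 2 fell (Pfkfb3 and Pfkfb4), where 38.1% fell; Pfkm and Pgls were not called. At least 2-fold rises were found for 22 of the 33, against 9.98% of all genes, and no member fell by 2-fold, against 6.95%. The median log2 change of the 33 genes was 1.66 on the log2(FPKM + 1) scale, beside 0.0017 for all genes. The groups did not overlap for 31 of the 33, as for 73.9% of all genes. The balance of all genes depended on scaling: 4337 rose and 4240 fell on the deposited scale, and 5806 and 2960 with libraries rescaled to a common FPKM total, while 30 and 1 of the 33 pathway genes did. Calls are limma adjusted p under 0.05, with Benjamini-Hochberg adjustment over all genes tested.

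cKO-labelled TAM stood between the other groups for most of the pathway. Against control TAM, 25 of 33 genes fell, where 19.1% of all genes fell, and 1 rose (Slc2a3), where 20.5% rose; Hk2, Ldhb, Pgm1, Pgls, Pgd, Taldo1 and Rpe were not called. None of the 33 changed by 2-fold in either direction, which 1.01% of all genes did upward and 0.315% downward. The median log2 change was -0.32, beside 0.012 for all genes, and the groups did not overlap for 28 of the 33, as for 51.4% of all genes. Of all genes 2283 rose and 2127 fell, or 1501 and 3069 with libraries rescaled to a common total, when 1 and 29 of the 33 pathway genes did. Against resident macrophages, 28 of the 33 were higher in cKO-labelled TAM (40.2% of all genes) and 3 were lower (Pfkm, Pfkfb3 and Pfkfb4; 37.2% of all genes), with a median of 1.34 beside 0.02; 20 were at least 2-fold higher (8.95% of all genes) and none 2-fold lower (6.17%). The groups did not overlap for 31 (75.5% of all genes). The 3 comparisons share libraries, so they are set side by side and are not independent of each other.

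**Figure D1:**
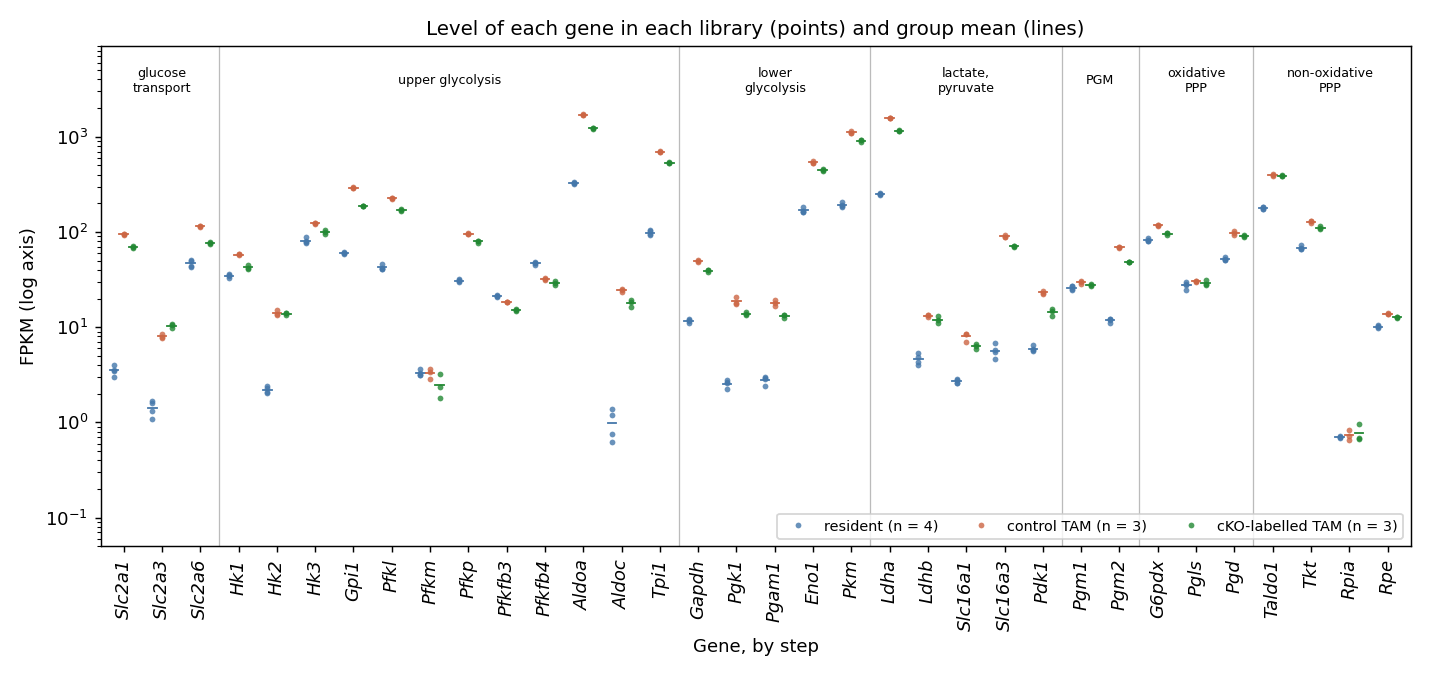
FPKM (log axis) of each of the 34 genes in each library (points) with group means (lines), ordered by step; blue is resident (n = 4), orange control TAM (n = 3), green cKO-labelled TAM (n = 3). For most genes the orange points sit above the green and both above the blue; for Pfkfb3 and Pfkfb4 the blue points are the highest, and Rpia stays under 1 FPKM in all libraries.

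All 3 glucose transporters rose in control TAM, and their makeup differed between groups. Slc2a1 (GLUT1, the widespread basal glucose transporter; chromosome 4, 119108711 to 119137983, GRCm38) read 3.50, 4.05, 2.97 and 3.55 FPKM in resident cells, 92.9, 94.8 and 95.4 in control TAM and 71.5, 69.1 and 67.1 in cKO-labelled TAM. The 3 groups did not overlap. The mean was 26.8 times higher in control TAM than in resident (log2 change 4.41, SE 0.06, limma adjusted p = 2.68e-18), and it fell by 26.6% from control to cKO-labelled TAM (log2 change -0.44, SE 0.07, limma adjusted p = 0.000106).

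Slc2a6 (GLUT6, a transporter of intracellular membranes; chromosome 2, 27021363 to 27027998) was the most abundant of the 3 in resident cells, at 50.6, 49.1, 44.4 and 43.4 FPKM. It read 115, 117 and 114 FPKM in control TAM and 77.7, 76.4 and 75.2 in cKO-labelled TAM, again without overlap. Its log2 change was 1.28 (SE 0.05, limma adjusted p = 5.40e-13) in control TAM against resident and -0.59 (SE 0.05, limma adjusted p = 3.44e-07) in cKO-labelled against control TAM.

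Slc2a3 (GLUT3, a transporter with high affinity for glucose; chromosome 6, 122727809 to 122801640) was the gene that rose from control to cKO-labelled TAM, and its values are shown for that reason. It read 1.66, 1.61, 1.10 and 1.31 FPKM in resident cells, 8.57, 7.96 and 7.69 in control TAM and 10.5, 10.8 and 9.76 in cKO-labelled TAM. Every cKO-labelled library was above every control library (log2 change 0.33, SE 0.09, limma adjusted p = 0.0102). As a share of the 3 transporters' summed FPKM, Slc2a1 went from 6.79% ± 0.682 (SD) in resident to 43.3% ± 0.593 in control and 44.4% ± 0.348 in cKO-labelled TAM, and Slc2a6 from 90.5% ± 0.876 to 53.0% ± 0.441 and 49.0% ± 0.409.

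Of the 12 genes from hexokinase to triose phosphate isomerase, 9 rose and 2 fell in control TAM against resident (median log2 change 1.91), and 11 fell and none rose in cKO-labelled against control TAM (median -0.35). Hexokinases phosphorylate glucose. Hk1 (chromosome 10, 62268855 to 62379908), the widespread form bound to mitochondria, read 35.7, 33.3, 34.8 and 35.8 FPKM in resident cells, 58.2, 58.0 and 57.2 in control TAM and 44.7, 41.4 and 41.2 in cKO-labelled TAM. Hk3 (chromosome 13, 55005985 to 55021385), a form found in myeloid cells, read 87.8, 80.6, 78.9 and 76.0, then 126, 123 and 123, then 104, 99.2 and 94.5 FPKM in the same order of groups. For both genes control TAM was above cKO-labelled TAM and cKO-labelled TAM above resident in every library.

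Hk2 (chromosome 6, 82725025 to 82774454), the inducible hexokinase, read 2.07, 2.41, 2.33 and 2.05 FPKM in resident cells, 13.6, 13.3 and 15.1 in control TAM and 13.5, 14.0 and 13.9 in cKO-labelled TAM. Both TAM groups lay above resident and overlapped each other. The log2 change was 2.22 (SE 0.07, limma adjusted p = 2.65e-14) in control TAM against resident and -0.02 (SE 0.07, limma adjusted p = 0.851) in cKO-labelled against control TAM, and the latter was 0.03 without control TAM replicate 3. Among the hexokinases' summed FPKM, Hk2 made up 1.88% ± 0.193 in resident cells, 7.16% ± 0.481 in control and 8.88% ± 0.526 in cKO-labelled TAM.

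Gpi1 (glucose 6-phosphate isomerase; chromosome 7, 34201330 to 34230336) read 62.0, 59.1, 59.9 and 59.5 FPKM in resident cells, 290, 299 and 289 in control TAM and 188, 190 and 186 in cKO-labelled TAM. The 3 groups were far apart relative to their spread. Its log2 change was 2.27 (SE 0.03, limma adjusted p = 9.09e-19) in control TAM against resident, and -0.64 (SE 0.03, limma adjusted p = 4.96e-10) in cKO-labelled against control TAM, a fall in mean FPKM of 35.9% and the largest within these 12 genes.

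Phosphofructokinase commits the sugar to glycolysis, and its liver and platelet forms both rose. Pfkl (chromosome 10, 77986947 to 78010083) read 46.0, 41.3, 40.8 and 41.8 FPKM in resident cells, 228, 224 and 228 in control TAM and 176, 172 and 166 in cKO-labelled TAM. Pfkp (chromosome 13, 6579768 to 6648777) read 30.7, 31.3, 31.8 and 29.96, then 94.8, 97.2 and 95.1, then 81.3, 76.9 and 80.98 FPKM. In both the order was resident, cKO-labelled TAM, control TAM, without overlap. The log2 change against resident was 2.39 (SE 0.04) for Pfkl and 1.60 (SE 0.04) for Pfkp in control TAM, and Pfkl went from 55.4% ± 1.72 of the 3 forms' FPKM in resident to 69.6% ± 0.505 in control and 67.6% ± 0.833 in cKO-labelled TAM.

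The remaining phosphofructokinase gene and the 2 regulators of the step did not follow the rest, and they are shown after their values had been seen. Pfkm, the muscle form (chromosome 15, 98092589 to 98132451), read 3.14, 3.17, 3.62 and 3.28 FPKM in resident cells, 3.64, 3.36 and 2.87 in control TAM and 3.24, 2.34 and 1.80 in cKO-labelled TAM, with overlap in every comparison. Its log2 change against resident in control TAM was -0.0071 (SE 0.11, limma adjusted p = 0.957) and took the other sign under 4 alternatives. Its fall from control to cKO-labelled TAM (log2 change -0.33, SE 0.12, limma adjusted p = 0.0432) was lost under 10 alternatives, among them the omission of resident replicate 2 or 4, control TAM replicate 1 or 2, or cKO-labelled TAM replicate 2 or 3. Without the last of these it was -0.18 (limma adjusted p = 0.227), and the fall against resident was -0.19 (limma adjusted p = 0.118) in place of -0.33 (limma adjusted p = 0.0141). The fall against resident was also lost when libraries were rescaled to a common FPKM total (-0.23, limma adjusted p = 0.0758).

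Pfkfb3 and Pfkfb4 encode enzymes that make and break fructose 2,6-bisphosphate, an activator of phosphofructokinase. Pfkfb3 (chromosome 2, 11471433 to 11554077) read 21.7, 21.1, 20.7 and 21.2 FPKM in resident cells, 18.5, 18.5 and 18.4 in control TAM and 15.0, 15.4 and 14.7 in cKO-labelled TAM. Pfkfb4 (chromosome 9, 108991778 to 109032228) read 48.9, 47.0, 47.2 and 45.2, then 31.2, 32.8 and 31.8, then 30.7, 29.2 and 27.6 FPKM. Resident libraries were above all TAM libraries for both genes. In control TAM against resident, Pfkfb4 fell by 0.55 on the log2 scale (SE 0.04, limma adjusted p = 1.21e-08), and Pfkfb3 fell by 0.19 (SE 0.04, limma adjusted p = 0.000857). The fall of Pfkfb3 in this comparison did not pass when libraries were rescaled to a common FPKM total (log2 change 0.02, with the median of all genes moved to 0.18) or to a common total without the acinar genes (-0.08). The smaller fall of Pfkfb4 from control to cKO-labelled TAM (log2 change -0.13, SE 0.05, limma adjusted p = 0.0451) was lost under 10 alternatives, among them the omission of resident replicate 2 or 3, any control TAM replicate, or cKO-labelled TAM replicate 2 or 3.

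Aldolase splits fructose 1,6-bisphosphate. Aldoa (chromosome 7, 126795234 to 126800751), its main form, had the highest mean over all libraries of the 34 genes, with 332, 324, 319 and 325 FPKM in resident cells, 1702, 1741 and 1698 in control TAM and 1235, 1237 and 1201 in cKO-labelled TAM. It rose by a log2 change of 2.39 (SE 0.03, limma adjusted p = 4.56e-20) in control TAM against resident, and fell by 0.49 (SE 0.03, limma adjusted p = 1.64e-09) from control to cKO-labelled TAM. Aldoc (chromosome 11, 78322968 to 78327781), known as the brain form, read 0.747, 1.19, 0.623 and 1.38 FPKM in resident cells, 24.4, 23.3 and 25.4 in control TAM and 18.2, 16.5 and 19.1 in cKO-labelled TAM. Its rise was the largest of the 12 genes on the log2 scale (3.69, SE 0.11, limma adjusted p = 2.76e-14), while it still gave 1.40% ± 0.0755 of the summed aldolase FPKM in control TAM. As few as 21 reads stand behind Aldoc in a resident library. From control to cKO-labelled TAM it fell by 0.42 (SE 0.12, limma adjusted p = 0.00941), a call that was lost at a pseudocount of 0.1 (adjusted p = 0.1002). Tpi1, which interconverts the triose phosphates, went from a mean of 98.6 FPKM in resident cells to 696 in control and 533 in cKO-labelled TAM, without overlap.

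**Figure D2:**
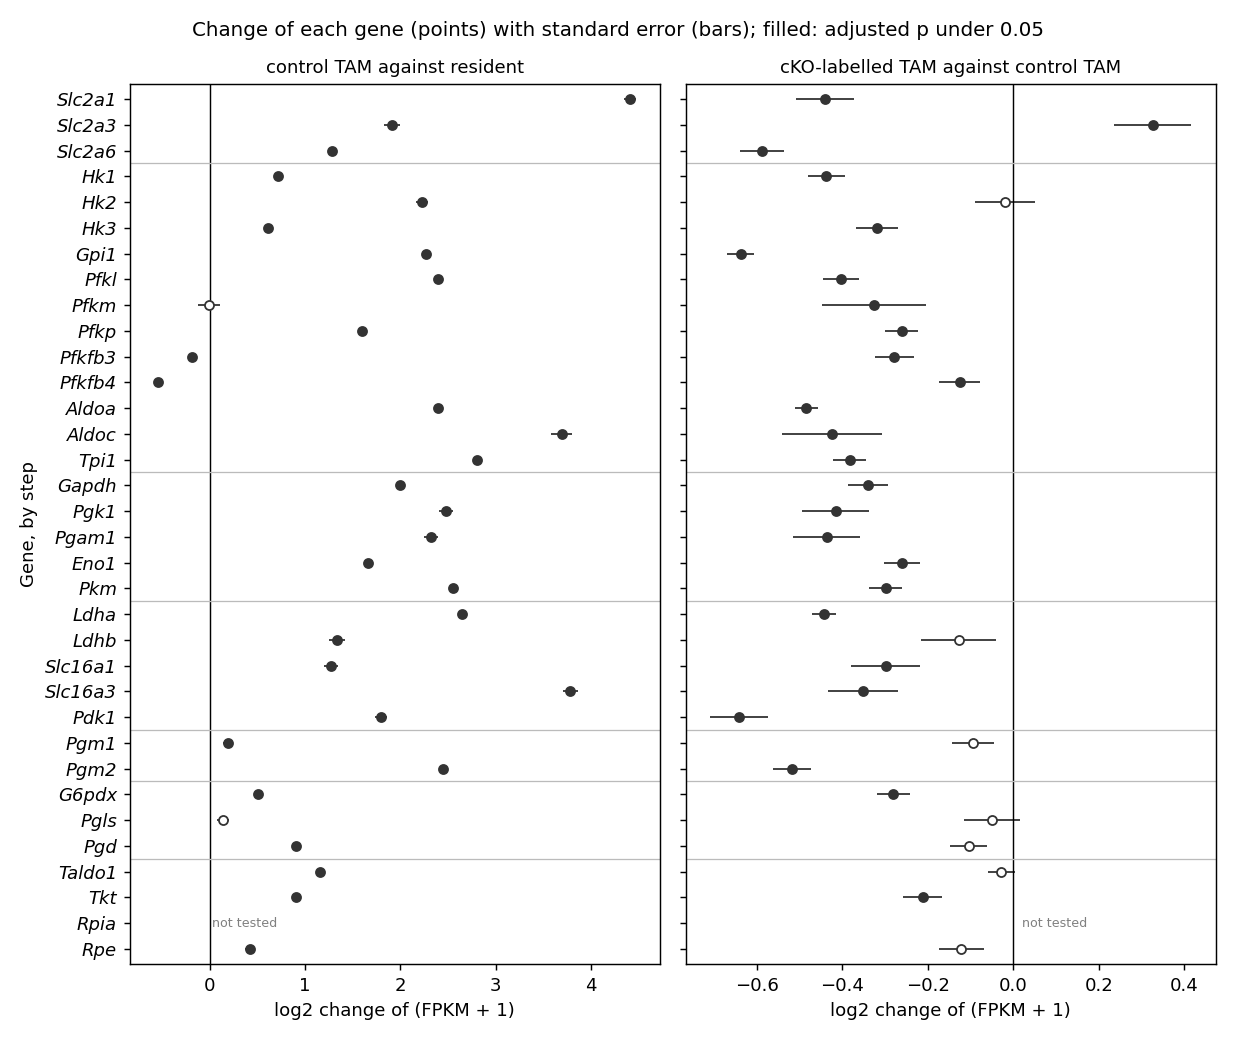
Log2 change of FPKM + 1 (points) with its standard error (bars) for each gene by step, control TAM against resident on the left and cKO-labelled against control TAM on the right, with different axes; filled points have an adjusted p under 0.05. On the left nearly all points are to the right of 0, up to 4.41 for Slc2a1; on the right nearly all are to the left, between -0.64 and -0.02, with Slc2a3 at 0.33.

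All 5 genes of lower glycolysis rose in control TAM against resident (median log2 change 2.32) and all 5 fell in cKO-labelled against control TAM (median -0.34). Pkm (chromosome 9, 59656368 to 59679375), the pyruvate kinase whose M1 and M2 splice forms are not separated at the gene level, read 205, 191, 181 and 186 FPKM in resident cells, 1098, 1154 and 1108 in control TAM and 927, 915 and 889 in cKO-labelled TAM. On the log2(FPKM + 1) scale it had the largest rise of the 5 (log2 change 2.55, SE 0.04, limma adjusted p = 2.94e-18). Pgam1 (chromosome 19, 41911923 to 41918660), the phosphoglycerate mutase, read 2.39, 2.87, 3.03 and 2.94, then 19.4, 16.6 and 18.1, then 12.4, 13.5 and 13.3 FPKM, and had the largest fall of the 5 from control to cKO-labelled TAM (log2 change -0.44, SE 0.08, limma adjusted p = 0.000406). Neither gene's groups overlapped. The mean FPKM of Gapdh was 11.7 in resident cells, 49.9 in control and 39.2 in cKO-labelled TAM. For Pgk1, the first ATP-forming step, the means were 2.55, 18.8 and 13.8 FPKM, and for Eno1, the enolase, 169, 537 and 448. By mean FPKM the rise of Pgk1 (7.37-fold) and of Pgam1 (6.43-fold) in control TAM was larger than that of Pkm (5.87-fold).

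The levels of these 5 genes are uncertain, because other annotated genes repeat their sequence; several of them are known to have processed pseudogenes. The share of 50-base stretches of the longest transcript that also occur in other genes' transcripts was 72.2% for Eno1, 68.0% for Pgk1, 41.5% for Pgam1, 34.4% for Pkm and 27.8% for Gapdh, and outside this list 27.0% for Ldhb, 19.0% for Rpe, 16.6% for Ldha and 13.5% for Aldoa. It was 0% for Slc2a6, Hk2, Hk3, Pfkm, Pfkp, Pfkfb4, Aldoc, Slc16a1, Slc16a3, Pdk1, both phosphoglucomutases, Pgls and Tkt. How reads with several matches were counted is not given in the sources used here.

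All 5 genes of lactate and pyruvate handling rose in control TAM against resident (median log2 change 1.80), and 4 of 5 fell in cKO-labelled against control TAM (median -0.35). Ldha (chromosome 7, 46841475 to 46855627), the lactate dehydrogenase subunit that favours lactate formation, read 258, 250, 248 and 245 FPKM in resident cells, 1580, 1578 and 1566 in control TAM and 1142, 1192 and 1140 in cKO-labelled TAM. The groups were separate, with a log2 change of 2.65 (SE 0.03, limma adjusted p = 3.37e-20) in control TAM against resident and -0.44 (SE 0.03, limma adjusted p = 1.23e-08) in cKO-labelled against control TAM. Ldhb (chromosome 6, 142490249 to 142507957), the heart-type subunit, read 4.35, 3.96, 5.39 and 4.90, then 12.9, 13.3 and 13.4, then 13.1, 11.9 and 10.955 FPKM. The TAM groups overlapped for Ldhb (log2 change -0.13, SE 0.09, limma adjusted p = 0.266), and it gave 1.83% ± 0.262 of the summed FPKM of both subunits in resident, 0.831% ± 0.0205 in control and 1.03% ± 0.0979 in cKO-labelled TAM.

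Slc16a3 (MCT4, a lactate exporter; chromosome 11, 120948480 to 120960868) read 6.84, 5.51, 4.64 and 5.77 FPKM in resident cells, 89.4, 92.9 and 89.0 in control TAM and 71.4, 69.1 and 71.4 in cKO-labelled TAM. Its mean was 15.9 times higher in control TAM than in resident (log2 change 3.78, SE 0.08, limma adjusted p = 2.12e-16) and fell by 21.9% from control to cKO-labelled TAM (log2 change -0.35, SE 0.08, limma adjusted p = 0.00326). Slc16a1 (MCT1, a carrier that works in both directions; chromosome 3, 104638668 to 104658462) read 2.89, 2.61, 2.78 and 2.58, then 8.58, 6.98 and 8.40, then 6.62, 5.91 and 6.33 FPKM. Of the summed FPKM of both carriers, Slc16a3 gave 67.4% ± 3.45 in resident cells, 91.9% ± 0.984 in control and 91.8% ± 0.303 in cKO-labelled TAM.

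Pdk1 (chromosome 2, 71873224 to 71903858), a kinase that inhibits pyruvate dehydrogenase and so limits the use of pyruvate in the mitochondrion, read 5.79, 6.53, 5.61 and 5.91 FPKM in resident cells, 24.1, 23.0 and 22.5 in control TAM and 13.1, 14.8 and 15.6 in cKO-labelled TAM. The 3 groups did not overlap. It rose by a log2 change of 1.80 (SE 0.06, limma adjusted p = 3.37e-13) in control TAM, and its fall of 37.3% in mean FPKM from control to cKO-labelled TAM was the largest of the 33 genes (log2 change -0.64, SE 0.07, limma adjusted p = 3.40e-06).

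Ratios of isozymes within a library do not depend on how the libraries were scaled. The log2 ratio of Hk2 to Hk1 was -3.98 ± 0.164 (SD, n = 4) in resident cells, -2.05 ± 0.108 (n = 3) in control TAM and -1.62 ± 0.0950 (n = 3) in cKO-labelled TAM, without overlap between any groups. That of Ldha to Ldhb was 5.76 ± 0.210, 6.90 ± 0.0360 and 6.59 ± 0.136, also without overlap. For Slc16a3 over Slc16a1 it was 1.05 ± 0.223, 3.51 ± 0.197 and 3.49 ± 0.0583, where the TAM groups overlapped. Pfkp over Pfkl went the other way, from -0.46 ± 0.0967 in resident to -1.24 ± 0.0344 and -1.10 ± 0.0611. For Hk3 over Hk1 the values were 1.21 ± 0.0978, 1.10 ± 0.0176 and 1.23 ± 0.0329. In the two-sided exact permutation test over libraries, in which the p of the smaller tail is doubled, each ratio but Hk3 over Hk1 gave p = 0.0571 for control TAM against resident (0.107 adjusted over the 15 comparisons), the smallest p that this test allows for 4 against 3 libraries, so none could pass 0.05. Between the TAM groups the exact p was 0.1 (0.125 adjusted) for all ratios but Slc16a3 over Slc16a1 (p = 1), and 0.1 is the smallest that 3 against 3 allow.

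**Figure D3:**
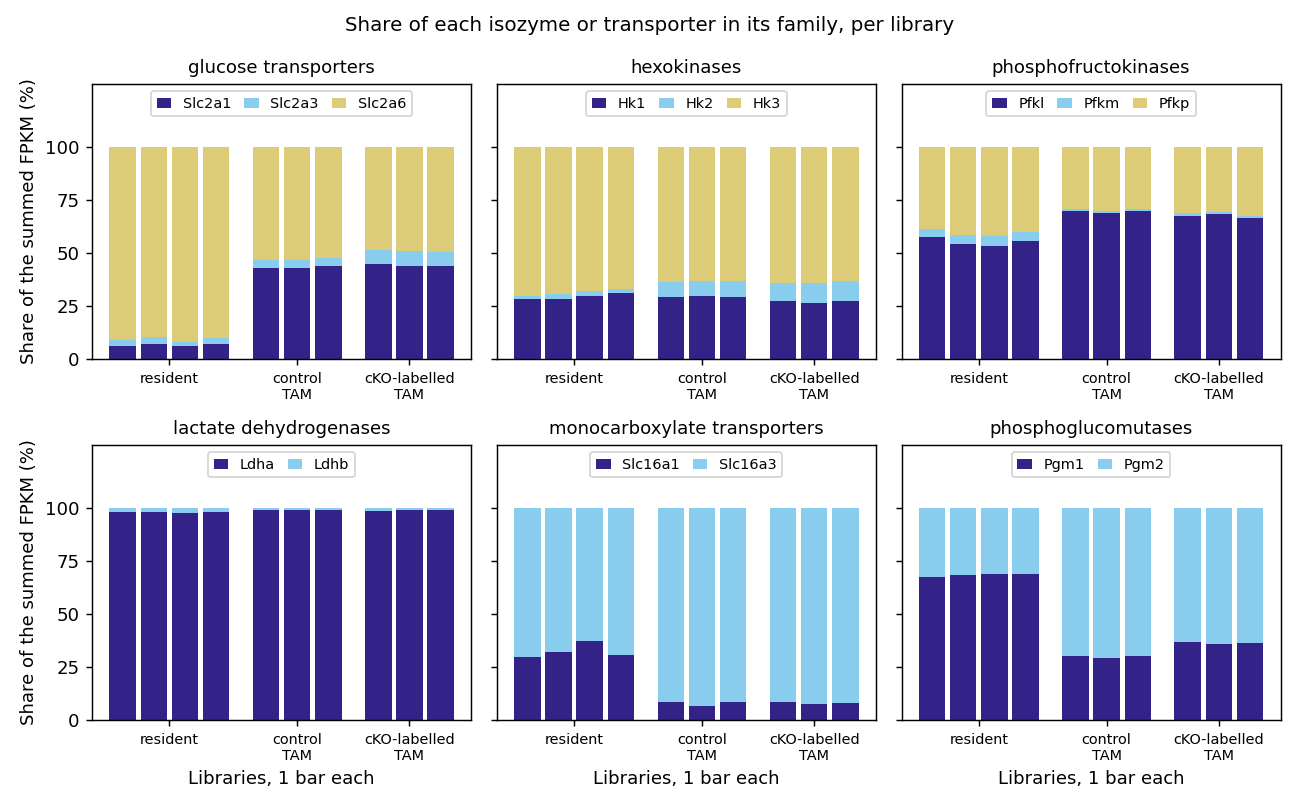
Share (%) of each gene in the summed FPKM of its family, 1 stacked bar per library, for 6 families in the 3 groups. Slc2a1, Slc16a3 and Pgm2 take larger shares in all TAM libraries than in resident ones (Pgm2 has a mean share of 31.5% in resident cells, 70.0% in control and 63.4% in cKO-labelled TAM), while the hexokinase bars differ less and Ldha stays between 97.9% and 99.2%.

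Phosphoglucomutase links glucose 6-phosphate to glycogen through glucose 1-phosphate. The table uses older symbols for this pair: its Pgm2 (ENSMUSG00000025791, chromosome 4, 99929414 to 99987294) is named Pgm1 in the GENCODE M21 annotation, and its Pgm1 (ENSMUSG00000029171, chromosome 5, 64092950 to 64128351) is named Pgm2 there. The gene on chromosome 4 read 12.2, 11.2, 12.3 and 12.02 FPKM in resident cells, 69.9, 68.5 and 69.5 in control TAM and 48.3, 48.1 and 48.0 in cKO-labelled TAM. It rose by 2.44 on the log2 scale (SE 0.04, limma adjusted p = 1.93e-17) and fell by 0.52 (SE 0.04, limma adjusted p = 2.66e-07) in the same comparisons, without overlap. The gene on chromosome 5 (Pgm1 in the table) changed little, with means of 26.0, 29.7 and 27.8 FPKM; its rise of 0.18 (SE 0.05, limma adjusted p = 0.00173) in control TAM passed, and its log2 change of -0.09 (limma adjusted p = 0.140) from control to cKO-labelled TAM did not, except under both rescalings to a common total.

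The pentose phosphate genes moved less. Of the 6 tested, 5 rose in control TAM against resident, with a median log2 change of 0.70, and 2 of the 6 fell in cKO-labelled against control TAM, with a median of -0.11. G6pdx (glucose 6-phosphate dehydrogenase, the entry to the oxidative arm; chromosome X, 74409483 to 74429194) read 80.9, 79.6, 81.9 and 86.6 FPKM in resident cells, 115, 119 and 118 in control TAM and 96.5, 98.8 and 93.5 in cKO-labelled TAM. It rose by 0.51 (SE 0.04, limma adjusted p = 2.35e-09) and fell by 0.28 (SE 0.04, limma adjusted p = 3.83e-05) on the log2 scale. Pgd (6-phosphogluconate dehydrogenase, the second NADPH-forming step; chromosome 4, 149149991 to 149166771) read 54.3, 51.8, 50.3 and 50.6, then 92.3, 102 and 97.9, then 92.2, 89.3 and 90.2 FPKM. Its log2 change was 0.90 (SE 0.04, limma adjusted p = 6.45e-12) in control TAM against resident and -0.10 (SE 0.04, limma adjusted p = 0.0662) in cKO-labelled against control TAM, and the latter passed under 7 alternatives, among them the omission of resident replicate 1 or control TAM replicate 1. Pgls, the lactonase between them, was not called in either, with means of 27.6, 30.3 and 29.3 FPKM and a log2 change of 0.13 (limma adjusted p = 0.0613) in control TAM that passed under 6 alternatives, among them the omission of resident replicate 1 or cKO-labelled TAM replicate 1.

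In the non-oxidative arm, Taldo1 (transaldolase; chromosome 7, 141392199 to 141402968) read 183, 175, 181 and 175 FPKM in resident cells, 404, 401 and 391 in control TAM and 400, 386 and 387 in cKO-labelled TAM. Both TAM groups were above resident and overlapped each other. The log2 change was 1.16 (SE 0.03, limma adjusted p = 3.69e-15) in control TAM against resident and -0.03 (SE 0.03, limma adjusted p = 0.503) in cKO-labelled against control TAM, which reached -0.11 and passed under both rescalings to a common total. Tkt (transketolase; chromosome 14, 30548359 to 30574720) read 73.0, 68.4, 66.0 and 66.3, then 132, 130 and 124, then 116, 106 and 110 FPKM, with a rise of 0.90 (SE 0.04, limma adjusted p = 1.14e-11) and a fall of 0.21 (SE 0.05, limma adjusted p = 0.00166). Rpe, the epimerase, had means of 10.2, 13.9 and 12.7 FPKM; its rise in control TAM passed (0.42, SE 0.05), and its change from control to cKO-labelled TAM (-0.12, limma adjusted p = 0.0812) passed under the rescalings alone.

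**Figure D4:**
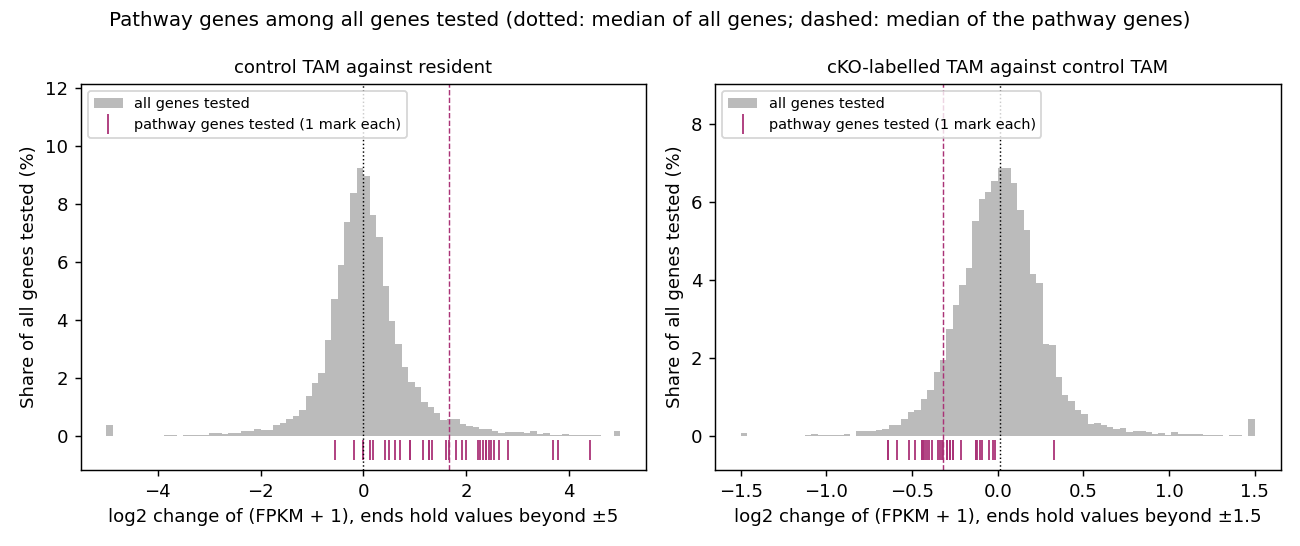
Distribution of the log2 change of FPKM + 1 over all 11127 genes tested (grey, % of genes per bin) with 1 mark below the axis for each of the 33 tested pathway genes, control TAM against resident on the left and cKO-labelled against control TAM on the right. The dashed median of the pathway genes lies at 1.66 on the left and -0.32 on the right, beside dotted medians of all genes of 0.0017 and 0.012.

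A wider list of 81 genes around the pathway (other isozymes and transporters, pyruvate dehydrogenase and its regulators, glycogen enzymes, oxygen sensors and glucose-responsive factors) had 57 tested members, of which 33 rose and 16 fell in control TAM against resident, 8 rose and 19 fell in cKO-labelled against control TAM, and 35 were higher and 17 lower in cKO-labelled TAM against resident. Of all genes tested, 39.0% rose and 38.1% fell in the first comparison, 20.5% and 19.1% in the second and 40.2% and 37.2% in the third. The medians of the 57 were 0.31, -0.07 and 0.30 on the log2 scale, beside 0.0017, 0.012 and 0.02 for all genes. Egln3, an oxygen-sensing hydroxylase that is itself induced by HIF-1, read 0.512, 0.416, 0.155 and 0.450 FPKM in resident cells, 62.0, 60.9 and 61.4 in control TAM and 28.8, 28.0 and 29.1 in cKO-labelled TAM. Its groups were far apart, with a log2 change of 5.50 (SE 0.08, limma adjusted p = 1.97e-18) and then -1.07 (SE 0.08, limma adjusted p = 8.05e-08), the sole fall of at least 2-fold among the 57 between the TAM groups. Hif1a, the oxygen-regulated subunit of HIF-1, had means of 17.3, 68.0 and 69.2 FPKM, and its log2 change between the TAM groups was 0.02 (SE 0.05, limma adjusted p = 0.756).

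Ranked on the log2(FPKM + 1) scale, the largest rises of at least 2-fold beside Egln3 in control TAM against resident were in Me1 (malic enzyme, a source of NADPH; 0.302 to 8.67 FPKM, log2 change 2.90) and Gys1 (glycogen synthase; 4.70 to 27.0 FPKM, 2.30). The largest falls were in Txnip (a brake on glucose uptake that is induced by glucose; 327 to 92.3 FPKM, -1.81), Mlxip (MondoA, the factor that induces Txnip; 13.5 to 5.02 FPKM, -1.27) and Slc16a7 (MCT2; 5.19 to 1.79 FPKM, -1.15). By mean FPKM, Ldhc (a lactate dehydrogenase known from testis, 0.0852 to 2.42 FPKM, 28.4-fold) rose more than Gys1 (5.74-fold). Pdk4 (4.40-fold lower) fell more than Txnip (3.54-fold lower). Both folds rest on values near the floor: Ldhc lay at 0 to 0.146 FPKM in resident cells, with 0 reads in its lowest library. Pdk4 lay at 0.340 to 0.669 FPKM in control TAM. Between the TAM groups the largest falls after Egln3 were in Mlxipl (ChREBP, the related glucose-responsive factor; 29.4 to 18.5 FPKM, -0.64) and Me1 (8.67 to 5.59 FPKM, -0.55), and the largest rises were in Ldhc (2.42 to 3.67 FPKM, 0.44), Gpd1 (0.674 to 1.27 FPKM, 0.44) and Bpgm (4.49 to 6.12 FPKM, 0.38). Against resident, Egln3 (4.43), Me1 (2.35) and Ldhc (2.10) led the rises in cKO-labelled TAM, and Txnip (-1.65), Mlxip (-1.41) and Pdk4 (-1.33), a fasting-induced kinase of the Pdk1 family, led the falls. Txnip also differed between the TAM groups, rising by 0.16 (SE 0.03, limma adjusted p = 0.0012) from 92.3 to 103 FPKM.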

How the data were processed

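RNA-seq covered 10 libraries of sorted macrophages. Extraction used a Norgen single-cell or an RNeasy Plus Mini kit, followed by SMART-Seq v4 amplification and Nextera XT, per the labels' protocols; such libraries carry no strand information, so a gene and an antisense partner cannot be told apart. The deposited table holds FPKM, which the authors computed; per the submitters' processing notes the builds were mm10 and GRCm38 and the tools edgeR and STAR, without versions or roles. Which gene lengths, scaling and filter the authors used is not given in the sources used here. FPKM are not counts, so a count test was not the main one.

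The 11127 genes that reached 1 FPKM in 3 or more libraries were tested with limma 3.58.1 in R 4.3.3 on log2(FPKM + 1), all 10 libraries in 1 fit with 3 group means and a variance trend, and p-values were Benjamini-Hochberg adjusted at 0.05. Changes on this scale understate those of low genes. The fit was tested on simulated data in which a small share of the genes was changed. Far more genes were called in control TAM against resident, so that test is no check on the calls given here. Pathway genes and lists were chosen with earlier results of these data known. Every library is printed, for each step, for the most abundant gene, for the largest change in each comparison and for isozyme pairs; from the wider list, up to 3 rises and 3 falls per comparison; from each cell type list, the 2 most abundant. Slc2a3, Pfkm, Pfkfb3 and Pfkfb4 were added after their values were seen, as were Hif1a and the change of Txnip between the TAM groups.

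Whole reads were recovered from low FPKM values with the longest transcript of GENCODE M21 as length: 85.8% to 87.1% of low values in a library came out whole within 0.05 of a read. A voom fit on these reads was added after seeing the data, and it called 29 genes higher and 2 lower in control TAM against resident, and 1 and 26 in cKO-labelled against control TAM. Same-group libraries differed by 1.75 to 3.05 times counting noise (median squared difference), and each was counted as 1 replicate. This spread does not show whether the libraries came from separate animals, so the p-values measure differences against the spread between libraries. The median coefficient of variation (SD over mean) of the 34 genes was 5.29% in resident cells, 2.26% in control and 2.91% in cKO-labelled TAM. The deviations of same-numbered libraries from their group means correlated by -0.0612 to 0.111 across groups, so the numbers were not taken to pair them. Coordinates are GENCODE M21 on GRCm38, 1-based. Protein sequences were not analysed here.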

Additional observations from a re-analysis of the deposited data

Results flagged for a closer look

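In the resident group, the 4 libraries of each of the 34 genes were checked for a library that stood apart, and 1 gene was found: Eno1 measured 183.4 FPKM in replicate 1 against 162.8, 163.3 and 166.2 in the others, a gap of 0.83 of the whole range. Chance marks about 1 in 20 such groups. Without this library Eno1 was still called higher in control TAM. Groups of 3 libraries were not checked.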

How the results depend on the processing

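Under 13 other settings and 10 omissions of 1 library, the number of genes called higher was 29 to 30 in control TAM against resident, 1 throughout in cKO-labelled against control TAM, and 28 to 30 in cKO-labelled TAM against resident, apart from the limit of 2-fold. The numbers lower were 1 to 2, 23 to 29 and 2 to 3; leaving out single libraries gave 2, 23 to 26 and 2 to 3. Asking for a change of at least 2-fold left 0 higher and 0 lower in cKO-labelled against control TAM, and 0 lower in the other comparisons. Rescaling to a common FPKM total, or to one without the acinar genes, left 1 gene lower in control TAM against resident, and moved the median of all genes there to 0.18 and 0.10. Under the former Pfkfb3 changed sign to 0.015. Pfkm in the same comparison changed sign to 0.16 and 0.078 under these rescalings and ranged from -0.0660 to 0.0657 when single libraries were left out (0.027 without resident replicate 3, 0.066 without control TAM replicate 3). Hk2 in cKO-labelled against control TAM ranged from -0.0511 to 0.0320 when single libraries were left out, the latter without control TAM replicate 3, and from -0.0933 to -0.0184 under the other settings. The cause was not tested. With a replicate block, which the libraries' deviations give no ground for, the counts were 30 higher and 2 lower, 1 and 24, and 28 and 3. For log2 ratios of isozymes, quantile normalization and a pseudocount of 1 gave 1.54 and 1.51 for Hk2 over Hk1 and 1.45 and 1.31 for Ldha over Ldhb in control TAM against resident, beside 1.93 and 1.14 as reported; in cKO-labelled TAM against resident Hk2 over Hk1 was 1.97 and 1.93. The quantile setting was run on log2(FPKM + 1), so it held the pseudocount of 1 as well, and its values do not show the effect of normalization alone. Between the TAM groups it gave -0.43 for Ldha over Ldhb and 0.092 for Hk3 over Hk1. In cKO-labelled TAM against resident it gave 1.02 and -0.0064 for these. Leaving out single libraries gave Hk3 over Hk1 -0.026 to 0.046 in cKO-labelled TAM against resident, and Slc16a3 over Slc16a1 -0.078 to 0.098 between the TAM groups. Depth limits the low genes: 21 reads stood behind Aldoc, 49 behind Pgk1 and 24 behind Rpia in their shallowest libraries.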
